A study of Arabis alpina with 27 samples.

Results

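The genes described here are the flavonoid and anthocyanin genes of Arabis alpina, a perennial relative of Arabidopsis thaliana, in the main stem of the Pajares accession. A list of 10 A. thaliana loci was sought among the homolog identifiers that the deposited count table pairs with its 21641 A. alpina genes. It holds the enzymes CHS, CHI, F3H, F3'H, FLS1, DFR, LDOX and UF3GT and the regulators MYB12 and PAP1. For 8 of the 10 a row was found, 1 row each. UF3GT (AT5G54060) and PAP1 (AT1G56650) were not analysed here. All 8 passed the filter on low counts, which kept 19337 genes.

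The study sequenced the stem zone of internodes that forms adventitious roots after long cold, in 27 libraries of 9 groups with 3 biological replicates each. Plants grew for 8 weeks in long days of 16 h light at 20 °C and 8 h dark at 18 °C (0w), and were then kept at 4 °C, also in long days, for 4, 8, 12, 16 or 21 weeks (4w, 8w, 12w, 16w and 21w). Further plants were moved back to the warm long-day glasshouse for 5 days, and these groups are named 12w+5dLD, 16w+5dLD and 21w+5dLD by the length of the cold before. All are of 1 accession with no transgene or added agent, and each library pools stem pieces of several plants. No warm-grown plants of the later ages were sampled. In comparisons with 0w, the effects of cold and of age cannot be told apart. Cold was given in growth chambers, whereas 0w and returned plants stood in a glasshouse. When cold stems are compared with 0w or returned stems, temperature and growth place, including its light, cannot be told apart. In these bulk samples, fewer cells of a type and less RNA per cell cannot be told apart either.

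Flavonoids are phenylpropanoid compounds that absorb ultraviolet light, act as antioxidants and, as anthocyanins, colour stems and leaves red to purple. The route starts from phenylalanine, which the general phenylpropanoid enzymes turn into an activated coumaric acid, a precursor shared with lignin. In A. thaliana, CHS, CHI and F3H build the flavonoid skeleton, F3'H hydroxylates it, FLS1 leads to the colourless flavonols, and DFR followed by LDOX leads to anthocyanidins. MYB12 switches on the early genes and FLS1 there, whereas PAP1 and its relatives, with bHLH partners and TTG1, switch on the late genes. In A. thaliana leaves, cold and bright light are well known to raise anthocyanins.

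Levels are given in CPM, the count of a gene scaled to the total of its library, with totals adjusted by the trimmed mean of M-values (TMM). A gene is called changed where edgeR's quasi-likelihood test gave a Benjamini-Hochberg adjusted p under 0.05 over all 19337 genes and a change of at least 2-fold. Libraries held 16089542 to 22523390 counts, so that 1 count was worth 0.0459 to 0.0627 CPM. The counts were made from transcript coverage, and 90 of the 216 values of the 8 genes are listed at 0. A listed 0 need not mean that no transcript was there, since the smallest count of DFR above 0 was 70 and that of MYB12 was 58. Among all genes averaging 1 to 5 CPM, 19.6% of values were at 0, against 8.30% among those averaging 5 to 10 CPM. For single genes, no fold change is given against a group whose 3 libraries are all at 0. Library 3 of 21w+5dLD stood apart: over the 1000 most variable genes it correlated with the mean of the 21w libraries at r = 0.54, and with the mean of the other 21w+5dLD libraries at r = 0.34. Values with and without it are given where it matters.

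Before cold, CHS, CHI, F3H and FLS1 were above 0 in all 3 libraries, MYB12 was above 0 only there, and the anthocyanidin genes DFR and LDOX were at or near 0. From 4 to 16 weeks of cold, every library lay below every 0w library for CHS, CHI, F3H, FLS1 and MYB12. Of all genes, 28.1%, 28.7%, 28.5% and 29.5% lay so at 4w, 8w, 12w and 16w. At these times 3, 3, 1 and 3 of the 8 genes were called lower, beside 7.39%, 9.11%, 9.38% and 10.2% of all genes. MYB12, which passed the filter only through 0w, is in each of these counts and was the only one called at 12w. After 21 weeks of cold, all enzymes but FLS1 were spread widely between libraries. After return from 12 weeks of cold, all 7 enzymes stood above every 12w library, against 22.8% of all genes. CHS, CHI, F3H, F3'H, DFR and LDOX had their highest group means of the series there, although CHS and CHI still overlapped 0w. None of the 7 differences from 12w passed edgeR's test, beside 10.6% of all genes called. For all 7 enzymes but FLS1, library 2 of 12w held most of the signal of its group.

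**Figure D1:**
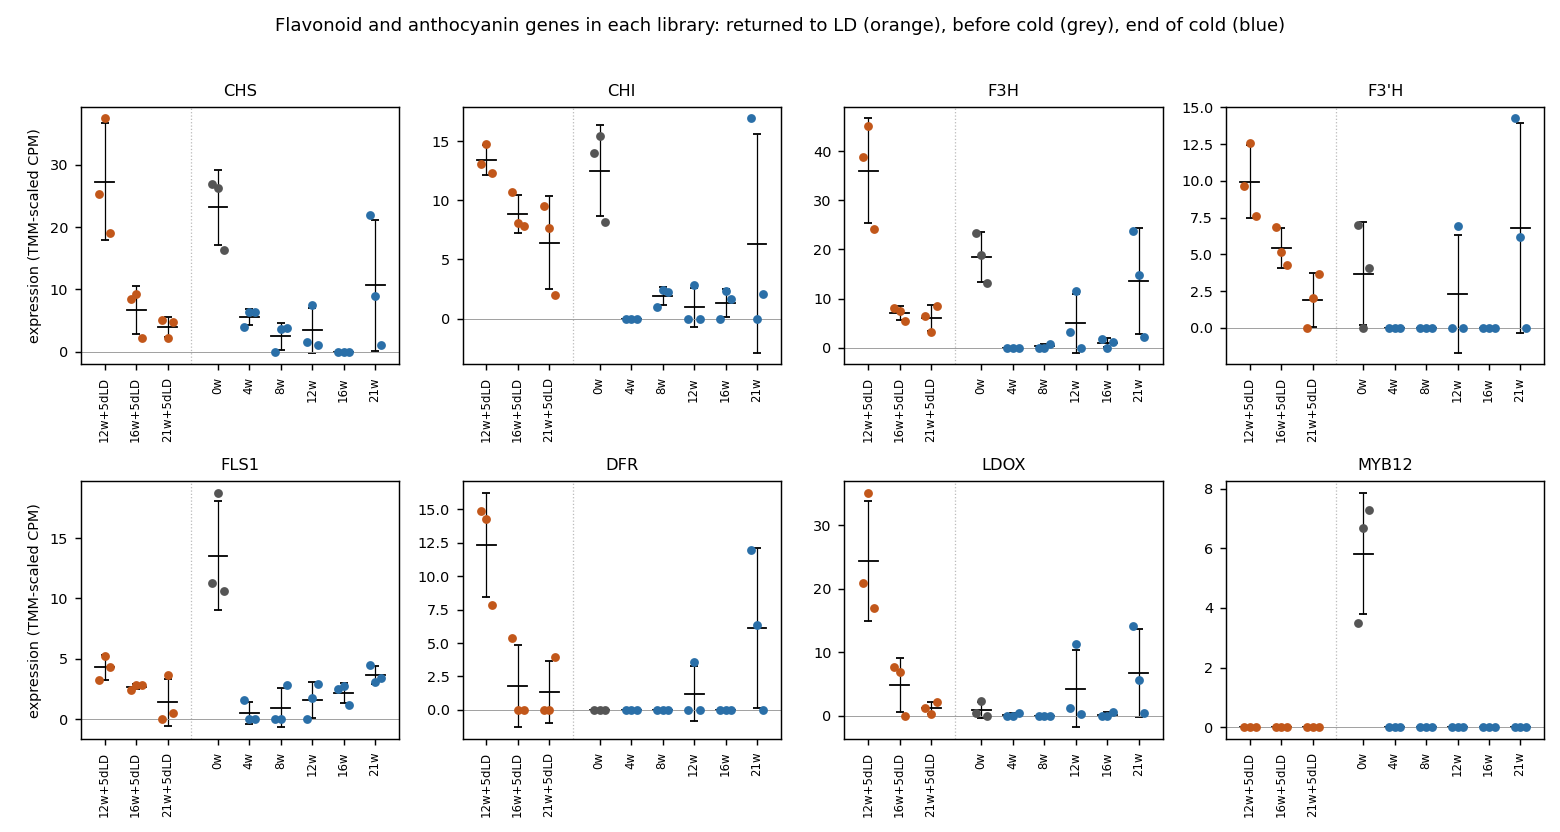
Level of each of the 8 genes in CPM (vertical axis, TMM-scaled, linear from 0) in every library of the 9 groups. Points are libraries, black lines group means and bars the SD of 3 libraries; MYB12 lies above 0 only at 0w, and LDOX and DFR have their highest group mean at 12w+5dLD, 24.4 and 12.3 CPM.

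CHS (Aa_G289990, homolog AT5G13930), chalcone synthase, makes the first committed step. It had 26.9, 26.2 and 16.3 CPM in 0w. In cold it had 4.07, 6.36 and 6.34 CPM in 4w, 0, 3.72 and 3.77 in 8w, 1.64, 7.54 and 1.13 in 12w, 0 in all 3 libraries in 16w, and 21.9, 8.99 and 1.07 in 21w. After return it had 25.2, 37.4 and 19.02 CPM in 12w+5dLD, 8.54, 9.33 and 2.29 in 16w+5dLD, and 5.13, 2.22 and 4.84 in 21w+5dLD. Every library of 4w to 16w lay below every 0w library, while the 21w group reached into the range of 0w. CHS was called lower than in 0w in 8w (log2 fold change −3.21, SE 1.16, edgeR adjusted p = 0.0415) and in 16w, where it was listed at 0 throughout (edgeR adjusted p = 0.0001). At 4w and 12w its log2 fold changes of −2.05 (SE 1.11) and −2.75 (SE 1.14) gave edgeR adjusted p of 0.181 and 0.0708.

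CHI (Aa_G566600, AT3G55120), chalcone isomerase, closes the central ring. It had 13.99, 15.4 and 8.13 CPM in 0w and was listed at 0 in all 3 libraries in 4w. Later in cold it had 0.997, 2.43 and 2.26 CPM in 8w, 0, 2.80 and 0 in 12w, 0, 2.30 and 1.61 in 16w, and 16.9, 0 and 2.096 in 21w. A single 21w library thus held more CHI than any 0w library, and another was listed at 0. In returned stems it had 13.1, 14.8 and 12.3 CPM in 12w+5dLD, 10.7, 8.04 and 7.85 in 16w+5dLD, and 9.54, 7.69 and 1.97 in 21w+5dLD, so that the 12w+5dLD libraries lay within the range of 0w. CHI was called lower in 4w (edgeR adjusted p = 0.0057) and at no other time in cold.

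F3H (Aa_G122450, AT3G51240), flavanone 3-hydroxylase, makes the dihydroflavonols at which the flavonol and anthocyanin branches part. It had 23.4, 18.9 and 13.2 CPM in 0w and was listed at 0 in all 3 libraries in 4w. It had 0, 0 and 0.804 CPM in 8w, 3.29, 11.6 and 0 in 12w, 1.79, 0 and 1.20 in 16w, and 23.7, 14.7 and 2.19 in 21w. Of the 5 cold groups only 21w overlapped 0w. F3H was called lower in 4w (edgeR adjusted p = 0.0018), 8w (log2 fold change −6.04, SE 1.74, edgeR adjusted p = 0.0120) and 16w (−4.20, SE 1.57, edgeR adjusted p = 0.0454). The returned libraries had 38.7, 45.1 and 24.2 CPM in 12w+5dLD, each above every 0w library, 8.11, 7.51 and 5.47 in 16w+5dLD, and 6.41, 3.25 and 8.50 in 21w+5dLD.

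F3'H (Aa_G541370, AT5G07990), flavonoid 3'-hydroxylase, adds the hydroxyl group that separates quercetin and cyanidin compounds from kaempferol and pelargonidin ones. It had 6.99, 0 and 4.04 CPM in 0w, and was listed at 0 in every library of 4w, 8w and 16w. At 12w it was above 0 in 1 library (6.93 CPM), and in 21w it had 14.3, 6.18 and 0 CPM. Since 1 of the 0w libraries is itself at 0, no group lay wholly below 0w. After the warm days it had 9.67, 12.6 and 7.62 CPM in 12w+5dLD, all above 0w, 6.88, 5.17 and 4.25 in 16w+5dLD, and 0, 2.05 and 3.66 in 21w+5dLD. It was called in none of the comparisons with 0w.

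FLS1 (Aa_G521430, AT5G08640), flavonol synthase, opens the flavonol branch. It had 11.3, 18.8 and 10.6 CPM in 0w and was lower in all other libraries of the series. In cold it had 1.57, 0 and 0 CPM in 4w, 0, 0 and 2.81 in 8w, 0, 1.78 and 2.95 in 12w, 2.46, 2.78 and 1.20 in 16w, and 4.52, 3.04 and 3.41 in 21w. Its 21w libraries lay close together, unlike those of the other enzymes. Returned stems had 3.26, 5.27 and 4.34 CPM in 12w+5dLD, 2.44, 2.82 and 2.80 in 16w+5dLD, and 0, 3.65 and 0.517 in 21w+5dLD. FLS1 passed edgeR's test in no comparison, with an adjusted p of 0.0887 at its lowest against 0w, in 4w (log2 fold change −4.68, SE 2.02).

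DFR (Aa_G150400, AT5G42800), dihydroflavonol reductase, opens the anthocyanin branch. It was listed at 0 in all libraries of 0w, 4w, 8w and 16w. In cold it was above 0 in library 2 of 12w (3.57 CPM) and libraries 1 and 2 of 21w (12.0 and 6.35 CPM). On return it had 14.9, 14.3 and 7.87 CPM in 12w+5dLD, 5.37, 0 and 0 in 16w+5dLD, and 0, 0 and 3.99 in 21w+5dLD. The raw counts behind the 12w+5dLD values were 288, 255 and 156, and 12w+5dLD was the only group with DFR above 0 in all 3 libraries.

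LDOX (Aa_G19930, AT4G22880), leucoanthocyanidin dioxygenase, makes the coloured anthocyanidins and followed DFR closely. It had 0.422, 2.29 and 0 CPM in 0w, 0, 0 and 0.453 in 4w, 0 in all 3 libraries in 8w, 1.20, 11.4 and 0.376 in 12w, 0, 0 and 0.625 in 16w, and 14.2, 5.62 and 0.390 in 21w. After return to warmth it had 21.0, 35.1 and 17.1 CPM in 12w+5dLD, 7.71, 6.87 and 0 in 16w+5dLD, and 1.17, 0.285 and 2.21 in 21w+5dLD. The 12w+5dLD libraries were above all others of the series, with a mean of 24.4 ± 9.50 CPM against 4.31 ± 6.12 in 12w and 0.905 ± 1.22 in 0w (SD, n = 3 each). The log2 fold change of 12w+5dLD over 0w was 4.74 (SE 2.15), which did not pass the test (edgeR adjusted p = 0.154).

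MYB12 (Aa_G698040, AT2G47460), the R2R3-MYB factor that drives flavonol synthesis in A. thaliana, had 3.50, 6.70 and 7.27 CPM in 0w (raw counts 58, 146 and 153) and was listed at 0 in the other 24 libraries. Since it passed the filter only through 0w, its calls in all 8 comparisons with 0w follow from these zeros and carry no further support. The edgeR adjusted p ran from 0.0076 in 16w to 0.0098 in 21w in cold, and was 0.0165, 0.0155 and 0.0146 in 12w+5dLD, 16w+5dLD and 21w+5dLD. With DESeq2 it was called in none of them, at adjusted p of 0.255 to 0.350. MYB12 was thus still listed at 0 in 12w+5dLD, where CHS and CHI overlapped their 0w values and F3H lay above them.

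**Figure D2:**
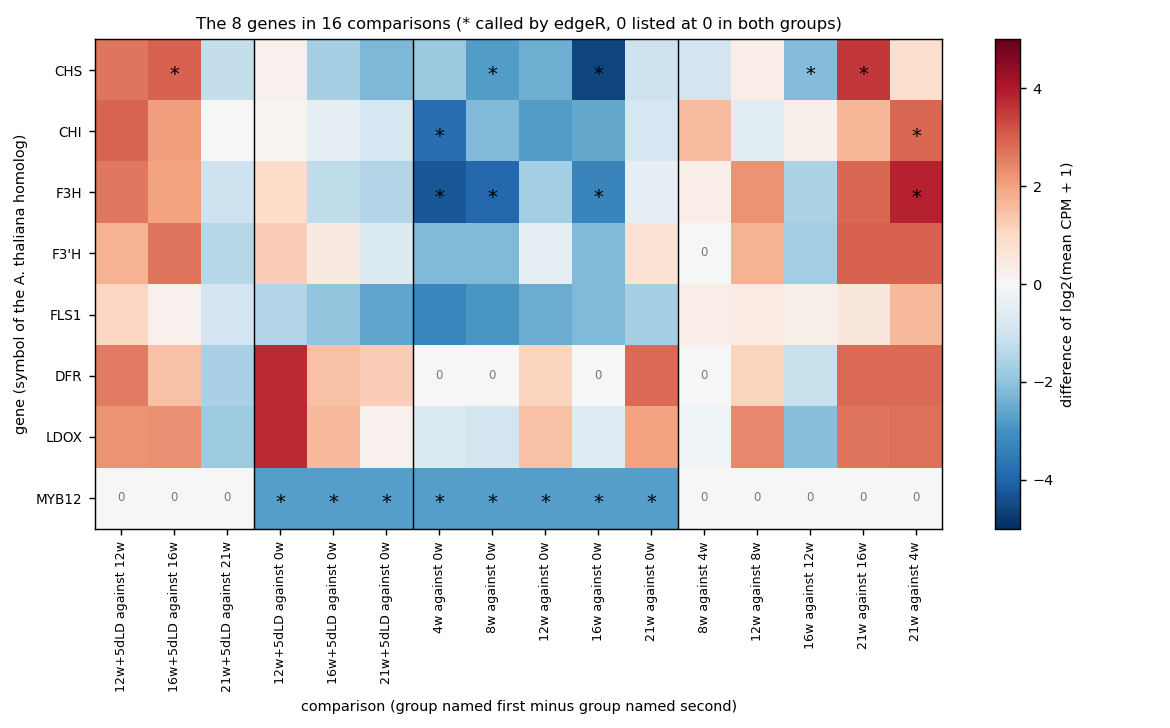
Difference of log2(mean CPM + 1) for the 8 genes (down) in each comparison (across), with colour running from lower to higher in the group named first. A star marks genes called by edgeR and 0 marks genes listed at 0 in both groups; all called differences from 0w are lower ones, and no gene is starred at 12w+5dLD against 12w.

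Counted together against 0w, 3 of the 8 genes were called at 4w (CHI, F3H and MYB12), 3 at 8w and 3 at 16w (CHS, F3H and MYB12 both times), and 1 at 12w and at 21w (MYB12). All were lower. Of all 19337 genes, 13%, 15.4%, 16.4%, 17.3% and 12.3% were called in either direction at 4w, 8w, 12w, 16w and 21w, and 7.39%, 9.11%, 9.38%, 10.2% and 7.14% were called lower. Every library lay below every 0w library for 5 of the 8 genes at 4w, 8w, 12w and 16w and for 2 at 21w (FLS1 and MYB12), against 28.1%, 28.7%, 28.5%, 29.5% and 26.7% of all genes. MYB12, which passed the filter only through 0w, is in each of these counts. Medians over the 8 genes were taken with groups at 0 set to 3 counts per library. DFR was left out at 4w, 8w and 16w, where both groups were at 0, and MYB12 was kept. The median log2 fold changes were −4.68, −3.83, −2.32, −4.20 and −0.71 from 4w to 21w. The fitted medians of all genes, without that setting, were −0.02, −0.02, −0.01, −0.02 and −0.003. Leaving out 12w library 2 brought the 12w count to 3, and without 0w library 2 or 3 the 21w count was 0.

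On return to warmth after 12 weeks of cold, all 3 libraries were above all 3 12w libraries for 7 of the 8 genes, against 22.8% of all genes, and MYB12 was listed at 0 in both groups. CHS averaged 27.2 ± 9.36 CPM at 12w+5dLD against 3.44 ± 3.56 CPM at 12w, and F3H averaged 36.0 ± 10.7 against 4.97 ± 5.99 CPM (SD, n = 3 each). The log2 fold changes were 2.98 for CHS (SE 1.15, edgeR adjusted p = 0.0651), 3.82 for CHI (SE 1.80, adjusted p = 0.131), 2.85 for F3H (SE 1.47, adjusted p = 0.170) and 2.1, 1.44, 3.36 and 2.50 for F3'H, FLS1, DFR and LDOX, with adjusted p of 0.388 to 0.617. None was called, beside 10.6% of all genes, although 2 of the 8 had an unadjusted p under 0.05. DESeq2 called 1, CHS (adjusted p = 0.0131), and limma on log2(CPM + 1) called 6, all but FLS1 and MYB12. Without 12w library 2, edgeR called CHS and CHI. Library 2 had the highest 12w value for 6 of the 7 genes above 0 in that group, with 11.6 CPM of F3H and 11.4 CPM of LDOX.

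After 16 weeks of cold, CHS, CHI, F3H and F3'H were above every 16w library on return (4 of 8 genes, against 24.7% of all genes), and CHS, listed at 0 in all 16w libraries, was the only one called (edgeR adjusted p = 0.0008), beside 11.4% of all genes. CHI averaged 8.86 ± 1.59 CPM at 16w+5dLD against 1.30 ± 1.18 CPM at 16w (SD, n = 3 each), a log2 fold change of 2.76 that did not pass the test (edgeR adjusted p = 0.255). F3H averaged 7.03 ± 1.39 CPM against 0.997 ± 0.913 CPM (2.80, edgeR adjusted p = 0.178). F3'H was listed at 0 in all 16w libraries (edgeR adjusted p = 0.0548). The enzymes of the anthocyanidin steps were uneven here, with DFR above 0 in library 1 only and LDOX in libraries 1 and 2. FLS1 averaged 2.69 ± 0.213 CPM at 16w+5dLD and 2.15 ± 0.837 CPM at 16w (log2 fold change 0.32, edgeR adjusted p = 0.938).

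After 21 weeks of cold the groups overlapped for all 8 genes, where 6.83% of all genes had every returned library above the 21w libraries. The log2 fold changes of 21w+5dLD over 21w were −1.39 for CHS, 0.01 for CHI, −1.16 for F3H, −1.83 for F3'H, −1.40 for FLS1, −2.19 for DFR and −2.45 for LDOX, at edgeR adjusted p of 0.574 to 1. None of the 8 had an unadjusted p under 0.05, DESeq2 and limma also called none, and 0.393% of all genes were called. Without library 3 of 21w+5dLD, the one that stood apart, 5.84% of all genes were called and still none of the 8. The group means without it were 3.68 CPM for CHS, 8.61 for CHI, 4.83 for F3H, 1.82 for FLS1 and 0.728 for LDOX, and DFR was at 0 in both remaining libraries.

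Whether the response to return differed with the length of the cold was tested as a difference of differences. Only CHS between 21 and 16 weeks passed (edgeR adjusted p = 0.0197, beside 1.78% of all genes): it stood above every 16w library after 16 weeks, and overlapped the 21w libraries after 21 weeks. Leaving out library 2 or 3 of 16w or library 1 of 21w ended this call, at adjusted p of 0.0511, 0.0521 and 0.0545, while without library 3 of 21w+5dLD it was 0.0402. It was also lost with limma and in a fit to only the groups compared (adjusted p = 0.076 and 0.118), whereas DESeq2 called 3 of the 8 genes. Between 21 and 12 weeks, the difference was −4.37 on the log2 scale for CHS (SE 1.58, edgeR adjusted p = 0.143), −4.01 for F3H and −4.95 for LDOX (adjusted p = 0.314 and 0.377), so none was called, beside 3.03% of all genes. Between 16 and 12 weeks none was called either, beside 0.0207% of all genes. For the pairs of 21 and 12 and of 16 and 12 weeks DESeq2 called 1 and 2 of the 8 genes, and limma 2 and 0.

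Returned stems were also set against 0w. At 12w+5dLD, F3H, F3'H, DFR and LDOX were above every 0w library (4 of 8 genes, against 18.4% of all genes) and FLS1 and MYB12 below (2 of 8, against 22.6%). FLS1 averaged 4.29 ± 1.01 CPM at 12w+5dLD and 13.5 ± 4.53 CPM at 0w (SD, n = 3 each; log2 fold change −1.66). DFR averaged 12.3 ± 3.89 CPM at 12w+5dLD and was listed at 0 at 0w. At 16w+5dLD and at 21w+5dLD, CHS, F3H, FLS1 and MYB12 were below every 0w library (4 of 8 genes each, against 22.9% and 20.5% of all genes). MYB12 was the only one of the 8 called in any of these 3 comparisons, beside 6.88%, 7.74% and 7.74% of all genes. This call was lost in all 3 comparisons without any 1 of the 0w libraries, with DESeq2 and with the replicate number as a block. Without library 3 of 21w+5dLD, MYB12 was the only one called at 21w+5dLD, beside 7.38% of all genes.

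Within the cold, no gene of the 8 was called between 4 and 8 weeks or between 8 and 12 weeks, beside 0.222% and 0.0207% of all genes, and 2 and 3 of them had an unadjusted p under 0.05. DESeq2 called 1 and 3. CHS was called lower at 16w than at 12w (edgeR adjusted p = 0.0450, beside 0.176% of all genes) and higher at 21w than at 16w (edgeR adjusted p = 0.0047, beside 1.58%), with 16w at 0 in both. From 4 to 21 weeks, CHI and F3H were called higher (edgeR adjusted p = 0.0231 and 0.0068, beside 4.53% of all genes), both listed at 0 at 4w. The 21w libraries themselves were far apart: CHI had 16.9, 0 and 2.096 CPM, and library 1 had the highest 21w value for all 7 enzymes. Summed over CHS, CHI and F3H, single 21w libraries had 5.36 to 62.6 CPM, a span that reaches from the level of 4w (4.07 to 6.36 CPM) to that of 0w (37.5 to 64.4 CPM).

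**Figure D3:**
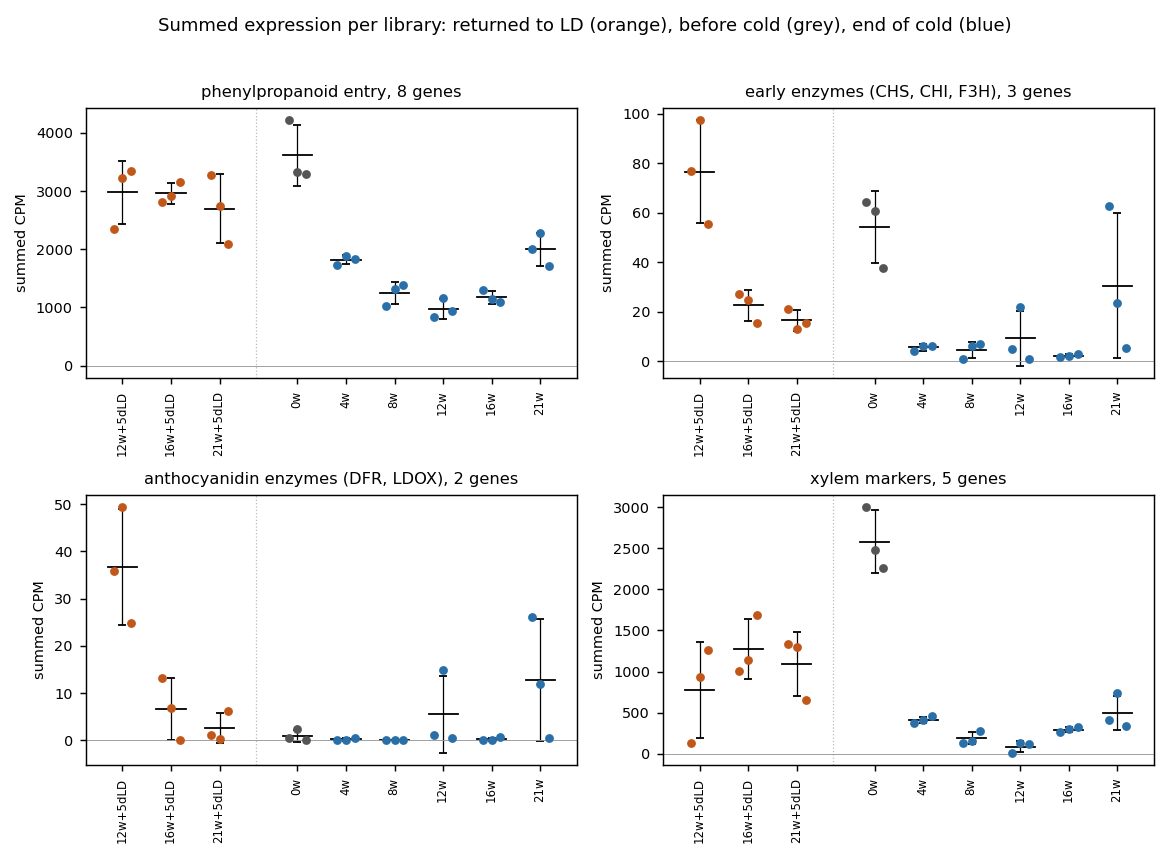
Summed CPM of the genes of a step in each library (points), with group means (black lines) and SD of 3 libraries (bars), on linear axes from 0. The sum of DFR and LDOX is 24.9 to 49.4 CPM at 12w+5dLD and 0 to 2.29 CPM at 0w, whereas the phenylpropanoid entry genes sum to 2356 to 3344 and 3289 to 4223 CPM.

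The enzymes varied together from library to library to differing degrees. Over the 27 libraries, the highest correlations of log2(CPM + 1) were r = 0.90 for DFR and LDOX, 0.83 for F3H and F3'H, 0.79 for F3'H and DFR and 0.78 for F3H and CHS. Other pairs were lower, such as FLS1 and DFR at 0.20, FLS1 and LDOX at 0.26 and CHI and DFR at 0.40. These are descriptions over libraries that share groups and depth. DFR was above 0 in 8 libraries, and LDOX and F3'H were above 0 in all of those 8. MYB12 followed another pattern, with r = 0.65 to FLS1 and −0.22 to DFR. Within some groups a single library stood out for most genes: library 2 of 12w, library 1 of 21w, and library 2 of 12w+5dLD, the highest of its group for 6 of the 7 enzymes. In 0w, 4w and 16w no library was the highest for most of the genes above 0.

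The entry enzymes of the phenylpropanoid route, which feed flavonoids and lignin alike, had far higher counts and passed the test where the flavonoid genes often did not. The list holds PAL1 to PAL4, phenylalanine ammonia-lyases, C4H, cinnamate 4-hydroxylase, and 4CL1, 4CL2, 4CL3 and 4CL5, 4-coumarate ligases, and 8 of its 9 genes were measured. In cold 5, 7, 8, 7 and 4 of the 8 were called lower than at 0w at 4w, 8w, 12w, 16w and 21w and none higher, beside the 7.39%, 9.11%, 9.38%, 10.2% and 7.14% of all genes called lower. One of them each time was 4CL3, listed at 0 in all these groups. The median log2 fold changes were −1.10, −1.88, −2.14, −1.77 and −0.96. PAL1 (Aa_G570390) averaged 845 ± 160 CPM in 0w, 247 ± 12.9 in 4w, 147 ± 32.9 in 8w, 145 ± 48.5 in 12w, 156 ± 22.5 in 16w and 324 ± 47.3 in 21w stems (SD, n = 3 each). After return it averaged 672 ± 134 in 12w+5dLD, 604 ± 51.3 in 16w+5dLD and 505 ± 194 in 21w+5dLD stems, so the level at 12w+5dLD was 2.21 log2 units above 12w and that at 16w+5dLD 1.96 above 16w. PAL4 fell by 2.76 log2 units at 12w against 0w (SE 0.24, edgeR adjusted p = 1.58e-07), the largest fold change of a PAL gene against 0w.

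On return, 6 of the 8 entry genes were called higher after 12 weeks, 4 after 16 weeks and 0 after 21 weeks, beside 5.77%, 6.83% and 0.217% of all genes called higher. Their median log2 fold changes, leaving out 4CL3, which was at 0 in both groups, were 1.59, 1.26 and 0.41. After 21 weeks 4 of the 8 had an unadjusted p under 0.05, and without library 3 of 21w+5dLD the count was still 0, beside 5.84% of all genes called in either direction. 4CL5 rose most, by 2.71 log2 units after 12 weeks and 2.24 after 16 weeks. Between 21 and 12 weeks the response of PAL1, PAL2, PAL4, C4H, 4CL2 and 4CL5 differed by −1.57, −1.35, −1.57, −1.01, −0.92 and −2.22 log2 units (edgeR adjusted p = 0.027, 0.00701, 0.0139, 0.024, 0.0281 and 0.00438). Without library 3 of 21w+5dLD 5 of these 6 still passed, and without library 1 of 21w 4 did. 4CL3, the 4CL that serves flavonoid synthesis in A. thaliana, went its own way: it had 2.83, 4.49 and 2.33 CPM at 0w, was listed at 0 in the other 24 libraries, and so was above 0 in the same 3 libraries as MYB12. It too passed the filter only through 0w, so its calls against 0w follow from these zeros. No other entry gene was called in the returned stems against 0w.

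Of the 8 accessory and flavonol-decorating genes, 4 were measured, and they did not move as a block. UGT78D2, the flavonoid 3-O-glucosyltransferase, lay above every 0w library at all later times. It had 43.3, 46.0 and 50.8 CPM at 12w, against 20.5, 23.0 and 23.2 CPM at 0w (log2 fold change 1.07, edgeR adjusted p = 0.0043), and was called also at 21w (1.74, or 1.17 without library 1) and in all 3 returned groups (1.37, 1.31 and 1.22). UGT89C1, the flavonol 7-O-rhamnosyltransferase, and OMT1, a methyltransferase of flavonols and of lignin precursors, went the other way. OMT1 was called lower than at 0w at all 5 cold times, and both were called higher on return after 12 weeks (UGT89C1 1.64, OMT1 1.79) and 16 weeks (1.92 and 2.03). After 21 weeks neither was called with all libraries, and both were without library 3 of 21w+5dLD (1.45 and 1.28). The chalcone isomerase-like gene CHIL was above 0 in 9 libraries, all of which had CHI above 0.

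Of the 7 genes of anthocyanin decoration and transport, 4 were measured. UGT75C1, the anthocyanin 5-O-glucosyltransferase, had 23.1, 29.6 and 19.7 CPM at 12w+5dLD, against 9.28, 10.04 and 8.17 CPM at 0w, and was called higher (log2 fold change 1.40, edgeR adjusted p = 0.0005). It was also called higher at 21w (1.02, and 0.90 without library 1, then under the 2-fold limit). At 21w+5dLD it had 6.64, 7.52 and 13.3 CPM against 21.6, 21.0 and 13.1 CPM at 21w, a call with overlapping groups (−1.02, edgeR adjusted p = 0.0495) that was −1.40 without library 3 of 21w+5dLD and was lost without library 1 of 21w. Its return response differed between 21 and 12 weeks by −1.72 log2 units (edgeR adjusted p = 0.0099). 5MAT, the malonyltransferase of anthocyanin glucosides, had 11.01, 16.0 and 9.59 CPM at 12w+5dLD, against 1.75, 5.86 and 1.32 CPM at 12w, and was above 0 in 24 of the 27 libraries. TT19, a glutathione S-transferase needed to store anthocyanins in the vacuole, had 11.01, 13.1 and 4.69 CPM at 12w+5dLD against 2.90, 3.62 and 0 CPM at 12w. Neither 5MAT nor TT19 was called in the comparisons of returned with cold stems. From 4 to 21 weeks of cold 5MAT was called higher (log2 fold change 5.91, edgeR adjusted p = 0.0386), a call lost without library 1 of 21w (edgeR adjusted p = 0.0835). The fourth, BGLU10, was called lower at 16w (−1.06) but had the same count as a neighbouring gene in 20 libraries and is uncertain.

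**Figure D4:**
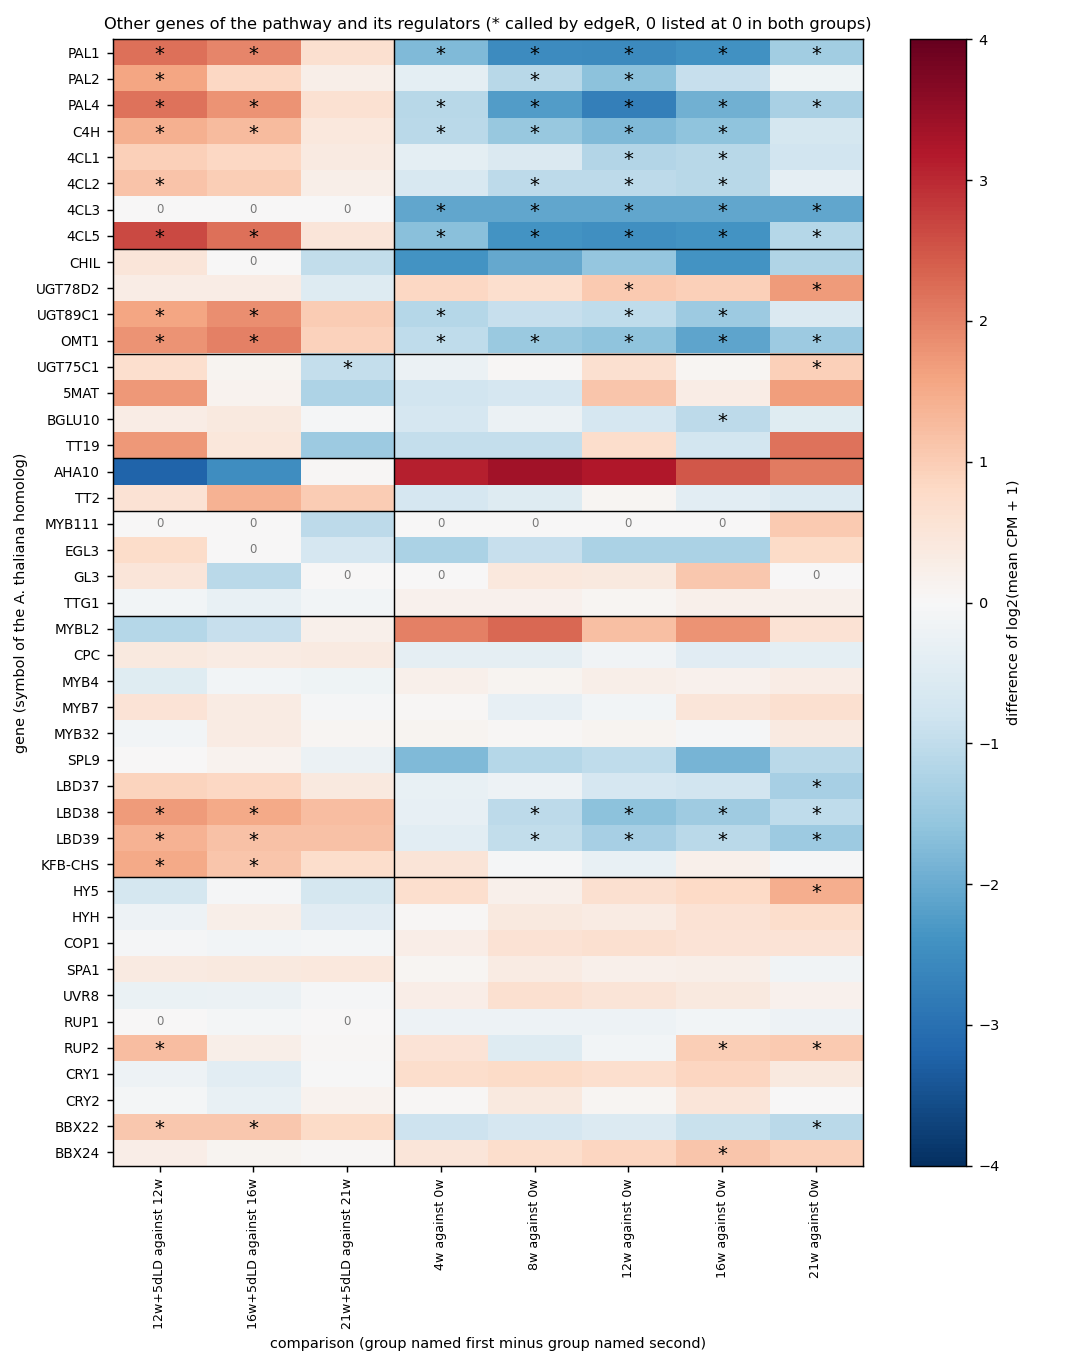
Difference of log2(mean CPM + 1) for the measured genes of the pathway lists (down) in the comparisons with 0w and of returned with cold stems (across). Stars mark genes called by edgeR; the phenylpropanoid entry genes are lower in cold and higher on return after 12 and 16 weeks, with 0 of 8 called on return after 21 weeks.

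Among regulators, the 3 testable activators of the 4 measured, out of 9 listed, were called in none of 16 comparisons (3 of 48 tests had an unadjusted p under 0.05), and TTG1, the WD40 partner of the MYB and bHLH factors, averaged 44.9 to 54.8 CPM over the 9 groups. The 10 repressors were all measured. LBD38 and LBD39, which repress anthocyanin and nitrate genes in A. thaliana, were called lower at 8w, 12w, 16w and 21w and higher on return after 12 weeks (LBD38 1.77, LBD39 1.44 log2 units) and 16 weeks (1.58 and 1.21). KFB-CHS, an F-box protein that targets CHS for breakdown in A. thaliana, had 70.1, 68.1 and 65.5 CPM at 12w+5dLD, against 24.0, 25.0 and 20.2 CPM at 12w (log2 fold change 1.56, edgeR adjusted p = 0.0003), and rose by 1.13 log2 units after 16 weeks. All 3 were called higher after 21 weeks only without library 3 of 21w+5dLD (1.65, 1.47 and 1.05). MYBL2, a repressor of the late genes, had 3.14, 4.58 and 4.53 CPM at 4w, against 0, 0 and 0.760 CPM at 0w, and was not called (edgeR adjusted p = 0.112).

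Among the 11 light-signalling genes, of which 10 passed the filter, RUP2 and BBX24 were called higher than at 0w at 16w (1.05 and 1.11 log2 units) and in all 3 returned groups. RUP2 was also called higher than at 0w at 21w (1.10). Within the cold it was called lower at 8w than at 4w (−1.13) and higher at 16w than at 12w (1.16). RUP2 restrains the ultraviolet-B receptor in A. thaliana. HY5, the bZIP factor that binds flavonoid gene promoters there, had 40.6, 16.1 and 15.5 CPM at 21w, against 4.94, 8.71 and 11.1 CPM at 0w (log2 fold change 1.54, edgeR adjusted p = 0.0366). This rested on library 1, the one with the highest values of the enzymes: without it the change was 0.94 (edgeR adjusted p = 0.231). BBX22, a partner of HY5, was called lower at 21w than at 0w (−1.10, edgeR adjusted p = 0.0128) and rose by 1.11 log2 units on return both after 12 and after 16 weeks.

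The 2 measured of 5 proanthocyanidin genes were called in none of the 16 comparisons, with an unadjusted p under 0.05 in 6 of 32 tests, all of AHA10 (Aa_G496820). AHA10 is a proton pump that serves the storage of proanthocyanidins in the vacuole of A. thaliana seed coats. It was listed at 0 in all libraries of 0w, 12w+5dLD and 16w+5dLD. In cold it had 0, 9.85 and 12.9 CPM in 4w, 10.9, 11.6 and 5.33 in 8w, 0, 11.3 and 13.5 in 12w, 13.1, 0.846 and 0 in 16w and, in 1 library of 21w, 9.60 CPM. The only returned library above 0 was library 3 of 21w+5dLD (213 counts), the library that resembled the 21w group. Its lowest edgeR adjusted p was 0.0867, for 8w against 0w.

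Of the marker sums of other tissues, those of xylem and green tissue had a higher mean in 12w+5dLD than in 12w, and those of epidermis and phloem did not. The summed level of 5 xylem markers (CESA4, CESA7, CESA8, XCP1 and XCP2), cells that make lignin, was 2260 to 3001 CPM in 0w, 375 to 455 in 4w, 137 to 275 in 8w, 13.1 to 129 in 12w, 269 to 322 in 16w and 340 to 737 in 21w. After return it was 127 to 1263 in 12w+5dLD, 1002 to 1684 in 16w+5dLD and 650 to 1340 in 21w+5dLD. The 650 CPM belong to library 3 of 21w+5dLD, which stood apart, and libraries 1 and 2 had 1340 and 1305 CPM. With all libraries in the fit, 4, 2 and 0 of the 5 were called higher than at the end of cold, beside 5.77%, 6.83% and 0.217% of all genes. Without library 3 of 21w+5dLD, 5.84% of all genes were called in either direction after 21 weeks. After 12 weeks CESA8 was the only xylem marker called without overlap between libraries and with a higher mean of at least 5 CPM. The sum of the 3 measured epidermis markers of 5 listed, of the tissue that holds most flavonols, was 68.9 to 87.2 CPM in 0w. It was 39.5 to 48.5 in 4w, 31.5 to 39.0 in 8w, 18.4 to 20.1 in 12w, 12.7 to 23.0 in 16w and 9.51 to 15.5 in 21w. In 12w+5dLD, where the flavonoid enzymes other than FLS1 were high, it was 11.9 to 16.9. FDH made up most of the sum in 0w, with a mean of 56.1 CPM. In 4w, 1 of the 3 lay above every 0w library and 2 lay below, and none was called. The 2 measured green tissue markers of 4 listed summed to 971 to 1221 CPM in 12w+5dLD, against 576 to 725 CPM in 12w and 723 to 842 CPM in 0w. The flavonoid enzymes other than FLS1 also had their highest group means in 12w+5dLD, although CHS and CHI overlapped 0w. LHCB2.1, a chlorophyll-binding protein, was the one called higher in 12w+5dLD than in 0w (log2 fold change 1.01, edgeR adjusted p = 2.45e-05). Phloem markers summed to 375 to 413 CPM in 0w, 230 to 290 CPM in 12w+5dLD and 230 to 438 CPM over all groups other than 0w. SEOR1, a sieve element protein, was called lower than at 0w at 8w, 12w and 12w+5dLD (log2 fold changes −1.16, −1.46 and −1.81). Its means were 195 CPM in 0w and 55.7 CPM in 12w+5dLD. It was the only phloem marker called without overlap between libraries and with a higher mean of at least 5 CPM. The part of these markers in the differences was not tested.

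The genes whose pattern over the 27 libraries was most like that of F3H, the enzyme with the highest mean, were Aa_G461880 (homolog AT2G39560), Aa_G316860 (AT5G43810) and Aa_G323660 (AT4G24380) with r = 0.87, Aa_G547170 (AT1G74510) with 0.85 and Aa_G267120 (AT4G17770) with 0.84, on log2(CPM + 1). For MYB12 they were Aa_G156100, Aa_G233420 (AT1G25230), Aa_G611580 (AT5G33370), Aa_G317700 (AT3G14450) and Aa_G163350 (AT1G70790), with r of 0.99 to 1.00. A gene above 0 only in 0w will correlate closely with MYB12, so the list describes its zeros. In 4 of these 5 the other 24 libraries are listed at 0 as for MYB12, and in Aa_G163350 22 libraries are. With the 9 group means in place of libraries, 1 of 5 genes stayed in the F3H list. For MYB12 the group means cannot rank genes, since those above 0 only in 0w all tie at r = 1.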

How the data were processed

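The authors made polyA-selected, strand-specific libraries from pooled stem pieces and read 150 bases from 1 end. They aligned with HISAT2, assembled with StringTie and deposited whole-number counts per gene made from transcript coverage by StringTie's prepDE script (versions not given in the sources used here). Homolog identifiers came with the count table, and 1 blank was filled from the 18 deposited comparison sheets. Those sheets hold the authors' DESeq2 fold changes and p-values, which were not used. Genes and lists were chosen with earlier results of these data known.

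R 4.3.3 and edgeR 4.0.16 (TMM, filterByExpr, glmQLFit and glmQLFTest on 9 group means over 27 libraries, 18 residual degrees of freedom) gave the tests. The common dispersion was 0.417. The tests were also run on simulated counts with a lower dispersion and without the kind of zeros listed here, so that run does not cover the 8 genes. Fold changes are first-named over second-named group. The alternatives used DESeq2 1.42.0, limma 3.58.1, other scalings, filters and single libraries left out. Named beyond the 8 genes were, per list and comparison, up to 3 called genes in each direction with the largest change, non-overlapping libraries and a higher mean of at least 5 CPM. Single other genes were given for their level. P-values of the main fit rest on a spread between pools that is estimated over all 9 groups of 3 pools, not only the groups compared.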

Additional observations from a re-analysis of the deposited data

Results flagged for a closer look

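The response to 5 warm days differed with the length of the cold, by edgeR's test of the difference itself, for 1 of the 8 flavonoid genes and for 8 further genes of the pathway lists. Of all genes, 3.03% differed between 21 and 12 weeks and 1.78% between 21 and 16 weeks. For CHS the responses after 21 and 16 weeks differed (adjusted p = 0.0197), where the 16w libraries are all listed at 0. Between 21 and 12 weeks the responses differed for PAL1 (adjusted p = 0.027), PAL2 (0.00701), PAL4 (0.0139), C4H (0.024), 4CL2 (0.0281), 4CL5 (0.00438), UGT75C1 (0.0099) and RUP2 (0.043), each lower on the log2 scale after 21 weeks. For UGT75C1 the log2 fold change on return was −1.02 after 21 weeks and 0.70, under the 2-fold limit, after 12 weeks. For 4CL5 they differed also between 21 and 16 weeks (0.0254). Without library 3 of 21w+5dLD, CHS, PAL1, PAL2, PAL4, C4H, 4CL5 and UGT75C1 kept their calls in the same pair of lengths, and 4CL2, RUP2 and the 4CL5 difference between 21 and 16 weeks did not. RUP2 also lost its call without library 1 of 12w+5dLD, library 2 of 12w or library 1 of 21w. Without library 1 of 21w, only part of PAL1, PAL2, PAL4, C4H, 4CL2 and 4CL5 kept their calls between 21 and 12 weeks. CHS lost its call without library 2 or 3 of 16w or library 1 of 21w, with limma and in a fit to only the groups compared.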

How the results depend on the processing

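With 8 genes followed, the number called moved most with the tool. DESeq2 called 2 at 12w and 1, 3, 3, 3 and 5 at 8w against 4w, 12w against 8w, 16w against 12w, 21w against 16w and 21w against 4w (edgeR 1 at 12w and 0, 0, 1, 1 and 2). It called 1 and 3 on return after 12 and 16 weeks (0 and 1), and 2, 1 and 3 differences between returns for 16 against 12, 21 against 12 and 21 against 16 weeks (0, 0 and 1). Limma, added after seeing the data, called 5, 5, 5 and 3 at 8w, 12w, 16w and 21w, 6 and 4 on return after 12 and 16 weeks, 3, 2 and 3 for the returned groups against 0w, 0 and 2 at 16w against 12w and 21w against 16w, and 2 and 0 differences for 21 against 12 and 16 weeks. A fit to only the groups compared gave 2 and 2 at 12w and 21w, 3, 3 and 2 for the returned groups, 2 on return after 16 weeks, and 0 for 16w against 12w, 21w against 16w, 21w against 4w and the 21 against 16 week difference. Without a filter, 16w against 12w gave 0.

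Same-numbered replicates did not deviate together (r −0.05 to 0.09 over 16 comparisons). The replicate block gave 1 and 1 at 8w and 16w, 0 at 12w, 21w and in the 3 returned groups against 0w, and 0 at 16w against 12w. Leaving out single libraries gave 3 to 4, 2 to 3, 1 to 3, 2 to 3 and 0 to 1 called at 4w, 8w, 12w, 16w and 21w, 0 to 2, 1 and 0 on return, 0 to 1 for each returned group against 0w, 0 at 8w against 4w and 12w against 8w, 0 to 1 at 16w against 12w, 1 at 21w against 16w, 1 to 2 at 21w against 4w, and 0, 0 and 0 to 1 for the differences. For the returned groups the count was 0 without any 1 of the 0w libraries. The cause of these shifts was not tested.

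DESeq2 size factors, upper-quartile scaling, a 1 CPM filter and the adjusted p alone moved none of these counts by over 1.5 times. Of 76 fold changes followed, 20 of them called, none reversed. Means without TMM moved by under 1 SD in all 72 cases. The listed zeros limit the 8 genes: they hold 90 of 216 values.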
